A study of Mus musculus with 3 samples.

Results

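Klk6-type oligodendrocytes are mature oligodendrocytes in which the transcripts of Klk6, Hapln2 and Anln outnumbered those of Opalin, Il33 and Grb14. They were picked from the CD45- sort of an EGFR-driven mouse glioma as cells with at least 500 UMIs (unique molecular identifiers, each a captured transcript), at least 500 genes and at most 20% mitochondrial UMIs. Each cell also had at least 4 UMIs summed over the myelin genes Mag, Mog, Cldn11 and Mal, no UMI of the human EGFR transgene and at most 2 UMIs of the microglial genes P2ry12, Tmem119 and Gpr34. The rule found 960 cells among the 20811 deposited, of which 17894 passed the filters and 6676 of these belonged to the CD45- sort. They are compared mainly with the 1626 Opalin-type oligodendrocytes, which met the same conditions with the 2 marker sums in the reverse order, while 341 cells with equal sums belonged to neither type.

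All mice carried a conditional human EGFR transgene, constitutive loss of Cdkn2a (Cdkn2a-/-) and a conditional luciferase reporter on a mixed genetic background. Tumors were started in adult animals by injecting a Cre-carrying virus into the striatum, so recombination was limited to infected cells and every cell of the brain lacked Cdkn2a. Brains without cerebellum were dissociated, cleared of myelin debris with Percoll and sorted by CD45, and single-cell transcriptomes were made by inDrop, a droplet method. The early, medium and large tumor stages were each 1 tumor sample, and each sample gave 4 technical CD45- libraries spread over 3 sequencing runs. The methods describe early samples as pools of animals and late ones as single tumors, without tying these classes to the 3 stages here. Klk6-type cells of the early sample held Xist, the female-specific transcript, in 107 cells and Y-linked transcripts in 107 others, with both in 8, so that sample held cells of females and males and hence of more than 1 animal, whereas the number of animals in the medium and large samples is not given in the sources used here. Normal brains were not analysed here, so no level below is a level of tumor-free tissue.

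Oligodendrocytes wrap axons in myelin, a membrane rich in cholesterol and galactolipids that is held compact by proteins such as MBP. Mature oligodendrocytes of the mouse brain fall into transcriptional states, and a state marked by Klk6, Hapln2, Anln, S100b and Hopx is known to be frequent in white matter, whereas states marked by Ptgds, Il33 and Grb14 are frequent in grey matter. KLK6 is a secreted serine protease, HAPLN2 is a link protein that ties hyaluronan to proteoglycans at nodes of Ranvier, and anillin (Anln) assembles septin filaments that stabilise mature myelin.

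The windows around the starts of 4 genes are shown because they carry the contrast between the types: Klk6 and Hapln2 chose the cells, and S100b and Ptgds, which the rule did not use, differed most clearly between them. Each runs 5′ to 3′ on the strand of its gene, from 250 bases before to 50 after the RefSeq start (GRCm38.p6). Capitals mark ACAAAG, a core bound by SOX factors, or CTGGCAC, a core of the kind bound by MYRF, searched with CTGGTAC on both strands, and no motif overlapped another in these windows.
Klk6, first of 2 annotated starts, chr7:43824294-43824593, plus strand: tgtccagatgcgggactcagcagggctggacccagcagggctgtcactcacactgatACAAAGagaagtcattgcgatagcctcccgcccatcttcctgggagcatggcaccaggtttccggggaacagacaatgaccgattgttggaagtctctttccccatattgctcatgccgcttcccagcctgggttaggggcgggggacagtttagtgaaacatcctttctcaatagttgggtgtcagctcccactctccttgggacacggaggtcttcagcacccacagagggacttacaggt
Hapln2, chr3:88027462-88027761, minus strand: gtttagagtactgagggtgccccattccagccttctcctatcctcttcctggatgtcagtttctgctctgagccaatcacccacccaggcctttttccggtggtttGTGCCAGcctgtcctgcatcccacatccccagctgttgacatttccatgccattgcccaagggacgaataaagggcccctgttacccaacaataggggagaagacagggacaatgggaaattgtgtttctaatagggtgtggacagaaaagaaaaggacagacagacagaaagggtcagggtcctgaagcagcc
S100b, chr10:76253586-76253885, plus strand: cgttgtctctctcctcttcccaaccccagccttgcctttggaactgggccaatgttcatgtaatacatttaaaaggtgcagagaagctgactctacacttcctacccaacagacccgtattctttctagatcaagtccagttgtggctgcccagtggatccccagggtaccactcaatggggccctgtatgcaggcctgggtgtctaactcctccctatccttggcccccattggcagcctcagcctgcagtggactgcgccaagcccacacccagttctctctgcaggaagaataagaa
Ptgds, chr2:25469700-25469999, minus strand: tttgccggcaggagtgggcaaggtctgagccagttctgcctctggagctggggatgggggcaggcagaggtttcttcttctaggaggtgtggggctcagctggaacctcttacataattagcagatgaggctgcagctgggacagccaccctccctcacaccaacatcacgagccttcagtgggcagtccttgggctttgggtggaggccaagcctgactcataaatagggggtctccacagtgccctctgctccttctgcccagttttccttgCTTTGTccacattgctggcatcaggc
The Klk6 window held ACAAAG at base 58, while the window of its other start held no match, and the Hapln2 window held CTGGCAC on the opposite strand at base 107, counted from 1 at the 5′ end. The Ptgds window held ACAAAG on the opposite strand at base 275, and S100b held no match. ACAAAG stood in 18.7% of all 32851 promoter windows, in 13.3% of the 9441 windows of tested genes, in 14.8% of those of genes higher in Klk6-type cells and in 15.4% of those of lower genes. A MYRF-type core stood in 7.10%, 6.51%, 8.36% and 10.9% of them in the same order. These matches are letters in a window and are read no further.

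The depth behind the values was 1599286 UMIs in the 517 Klk6-type cells of the early sample, 960298 in the 234 of the medium and 684986 in the 209 of the large one. The cells' median UMI count was 2580, 3798.5 and 2908 in that order, and the median mitochondrial share was 7.23%, 5.66% and 3.10%, with 7.49%, 5.90% and 3.13% in Opalin-type cells. Klk6-type cells were deeper than Opalin-type cells of the same sample, with a mean of the sample medians of 3096 against 2492 UMIs, although 3 pairs allow no exact sign-flip p below 0.25, the value obtained. Among CD45- cells, Scrublet, a doublet caller, marked 80, of which 3 were Klk6-type. The barcodes of 68 Klk6-type cells (7.08%) also occurred in another library of the same run. Haemoglobin transcripts reached 7391 CPM (a gene's UMIs relative to all UMIs of the same cells) in Klk6-type cells of the early sample, with 10.4 at the medium stage and 0 at the large, and their part in the results was not tested. Xist was read in the early sample at 191 CPM and by 2 UMIs in the medium one and by none in the large, while the Y-linked gene Ddx3y was present in all 3 at 73.8, 125 and 84.7 CPM, so the sexes of the animals differed along with the stages.

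Klk6 was read in 253 of the 960 cells (26.4%), Hapln2 in 742 (77.3%) and Anln in 841 (87.6%), and 194 cells held all 3. These genes chose the cells, so their levels are a description. Klk6 stood at 359, 263 and 375 CPM in the early, medium and large samples, against 5.71, 3.41 and 26.5 in Opalin-type cells. In endothelial cells of the same libraries, which should lack it, Klk6 was read in 0 of 425 cells at a median of 1553 UMIs, which allows a share of cells with a UMI of up to 0.706%. The same endothelial cells held Hapln2 in 1.65% and Anln in 4.00%, and Klk6 was read in 2 of 366 microglia and in 3.46% of 1186 cells with at least 2 UMIs of human EGFR, at a median of 6301.5 UMIs. Among markers of the state that the rule did not use, S100b was read in 54.6% of Klk6-type, 13.2% of Opalin-type and 8.47% of endothelial cells, at median depths of 2861.5, 2416.5 and 1553 UMIs. Ermn, the gene of the myelin cytoskeletal protein ermin, was likewise outside the rule and was read in 849 cells (88.4%). It did not set the types apart by detection, since 83.9% of Opalin-type cells also held it.

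Membership was close for a sizeable minority of cells. The marker sums differed by a single UMI in 175 cells (18.2%), while 405 cells (42.2%) had no UMI of Opalin, Il33 or Grb14 at all. Just inside the threshold, those 175 cells held Klk6 at 43.2, Hapln2 at 442 and Anln at 672 CPM. Just outside it, 269 cells with 1 more UMI of the Opalin side held them at 24.3, 248 and 331 CPM.

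Klk6-type cells made up 39.3% of Klk6-type plus Opalin-type cells in the early sample (95% exact binomial interval 36.6 to 42.0). Their share was 37.8% at the medium stage (34.0 to 41.8) and 32.2% at the large stage (28.6 to 35.9). The intervals cover counting error only. The 4 libraries of the early sample ranged from 36.9% to 43.4%, medium libraries from 33.3% to 41.2% and large libraries from 28.1% to 34.7%. All early libraries therefore lay above all large ones, whereas the medium libraries overlapped both. With 1 tumor sample a stage there is no test of this order.

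**Figure D1:**
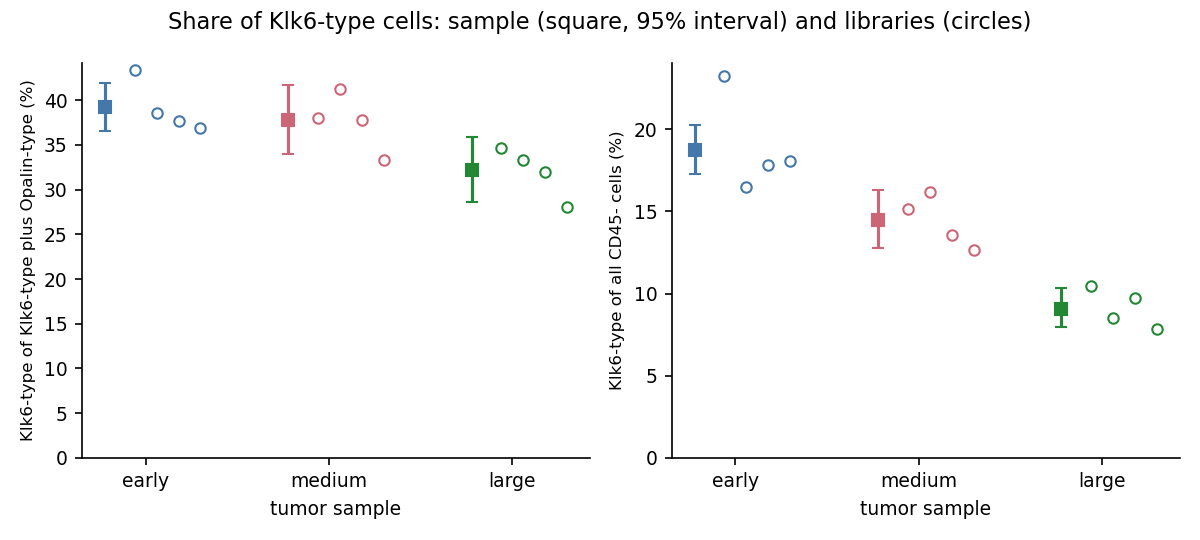
Left, Klk6-type cells as a percentage of Klk6-type plus Opalin-type cells; right, as a percentage of all CD45- cells, for each tumor sample (x axis). Squares are whole samples with 95% exact binomial intervals and circles are the 4 technical libraries. The share among both types runs from 39.3% in the early to 32.2% in the large sample, and the share of CD45- cells from 18.7% to 9.09%.

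Set against all CD45- cells, the Klk6-type share was 18.7% at the early stage (17.3 to 20.2). It was 14.5% at the medium stage (12.8 to 16.3) and 9.09% at the large stage (7.95 to 10.3), without overlap of the intervals. Oligodendrocytes as a whole took 54.6%, 42.7% and 31.8% of CD45- cells. Cells with at least 2 UMIs of human EGFR numbered 4, 304 and 878 in the same samples, so the composition of the sort changed around the oligodendrocytes and these shares are not counts of cells per brain.

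To find what else separates Klk6-type from Opalin-type oligodendrocytes, UMIs were summed by type in each tumor sample and compared within samples (edgeR quasi-likelihood, n = 3 tumor samples), leaving out the 14 genes of the rule. Of 10115 genes tested, 348 were higher in Klk6-type cells at an adjusted p under 0.05 (3.44%) and 188 were lower (1.86%), together 5.30%. The largest increases among abundant genes included S100b, Hopx, Serpind1 and Uchl1, and the largest decreases included Igfbp5, Mt2, Adamts1 and Ptgds. DESeq2 called 191 higher and 93 lower, and the fit that ignored which cells shared a tumor sample called 158 and 80. Leaving out the early sample gave 208 higher, leaving out the large one gave 214 higher and 122 lower, and leaving out the medium one gave 324 lower.

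S100b (chr10:76253853-76261159), which encodes a calcium-binding protein of glia, showed the largest difference among called genes with at least 50 CPM in the higher type. Its level in Klk6-type cells was 1072, 1305 and 1082 CPM in the early, medium and large samples, against 92.8, 127 and 69.4 in Opalin-type cells. The types did not overlap in any sample, with means of 1153 ± 132 and 96.4 ± 29.0 CPM (SD, n = 3) and a log2 difference of 3.62 (SE 0.11, edgeR adjusted p = 2.8e-08).

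Hopx (chr5:77086988-77115121), a homeodomain protein that does not bind DNA and is a further marker of the white-matter state, followed at 306, 235 and 247 CPM against 43.8, 28.1 and 24.2. Every Klk6-type value exceeded every Opalin-type value, and the log2 difference was 3.05 (SE 0.14, edgeR adjusted p = 1.5e-06). In each of the 12 libraries taken singly, both S100b and Hopx were higher in the Klk6-type cells.

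The other genes with large increases were lower in level. Serpind1, the gene of the thrombin inhibitor heparin cofactor II, stood at 73.8, 92.7 and 86.1 CPM against 12.8, 11.9 and 25.0 (log2 difference 2.41). Uchl1, a ubiquitin hydrolase abundant in neurons, stood at 163, 166 and 206 CPM against 43.8, 23.0 and 52.3 (2.19). Neither overlapped between the types. Slc25a27, a mitochondrial carrier, and the tetraspanin Tspan9 rose by 2.16 and 2.06 on the log2 scale. Cdkn1c, a cell-cycle inhibitor, the talin gene Tln2 and Aven, an inhibitor of cell death, rose by 1.98, 1.98 and 1.95. Smtnl2 and Bcat1, the latter a transaminase of branched-chain amino acids, rose by 1.92 and 1.86.

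Among the genes that fell, Ptgds (chr2:25466709-25470046), which encodes prostaglandin D2 synthase, was by far the most abundant. It was read at 3853, 2345 and 2873 CPM in Klk6-type cells and at 13017, 9555 and 9818 in Opalin-type cells. The types were separate in every sample and in all 12 libraries, and the log2 difference was -1.82 (SE 0.06, edgeR adjusted p = 5e-08).

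Igfbp5 (chr1:72857932-72874884), a binding protein of insulin-like growth factors, showed the largest decrease by the same measure at -2.62 on the log2 scale, with 29.4, 4.17 and 30.7 CPM against 92.3, 87.0 and 298. Its call was lost when cells needed at least 8 myelin UMIs (edgeR adjusted p = 0.398). The metallothionein Mt2 and the secreted metalloprotease Adamts1 both fell by 2.18. Mt2 stood at 21.9, 18.7 and 5.84 CPM against 85.2, 65.6 and 77.2, with no overlap. Prickle1, a planar polarity protein, had a log2 difference of -2.10. Marcks, an actin-binding protein, stood at 37.5, 12.5 and 19.0 CPM against 137, 38.4 and 122 and was called lower. Rtn1, Adamtsl1 and Rnase4 had log2 differences of -1.89, -1.68 and -1.66, although the call of Rnase4 was lost when each cell was thinned to 1500 UMIs (edgeR adjusted p = 0.202). Serpinh1, a collagen chaperone, fell by 1.99 and lost its call without the large sample (edgeR adjusted p = 0.0515).

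**Figure D2:**
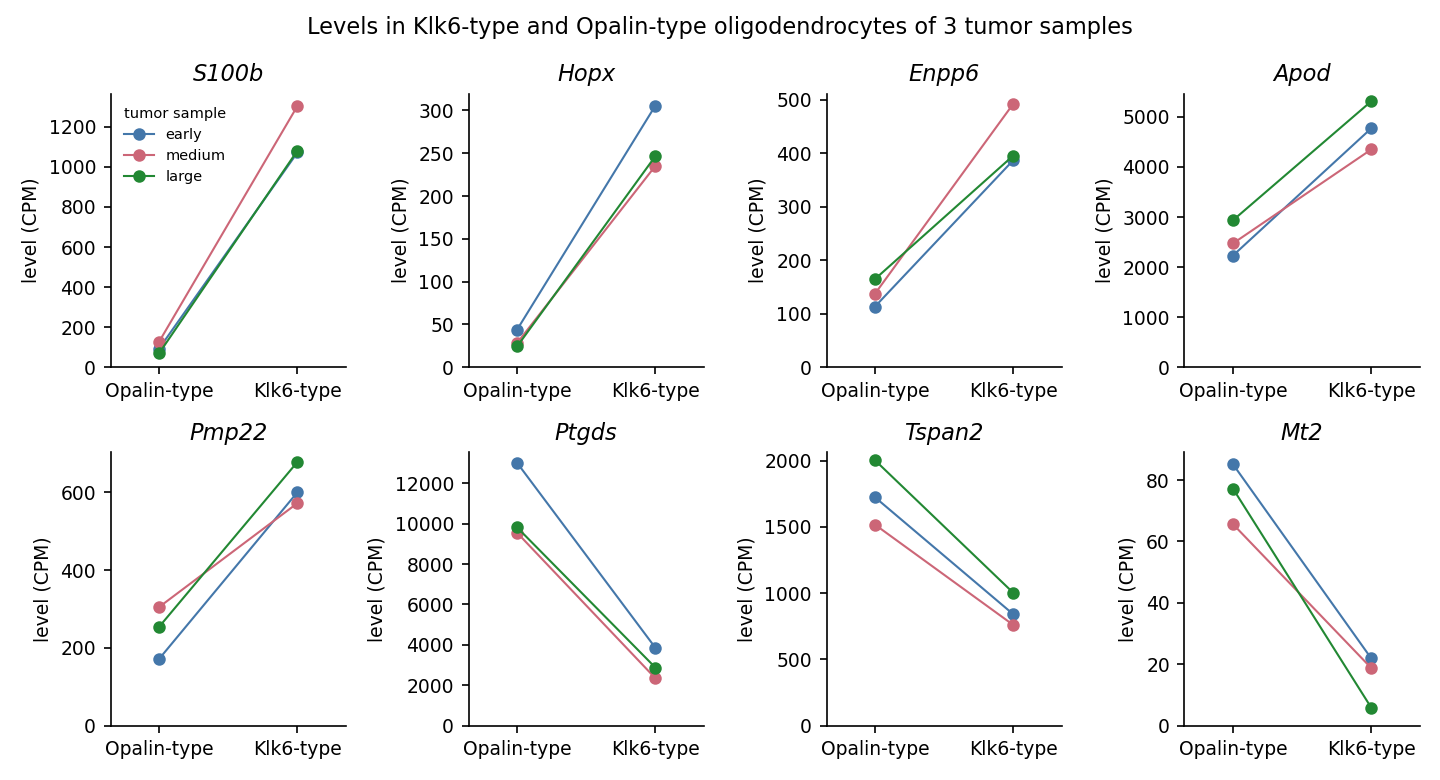
Levels of 8 genes (y axes, CPM from 0) in Opalin-type and Klk6-type cells, with a line joining the types of each of the 3 tumor samples. S100b, Hopx, Enpp6, Apod and Pmp22 rise from Opalin-type to Klk6-type in every sample, and Ptgds, Tspan2 and Mt2 fall in every sample.

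Gene lists were then read against the shares of 3.44% higher and 1.86% lower over all genes. At an unadjusted p under 0.05, used only to set lists beside all genes, 8.82% of all genes were higher and 7.76% lower, together 16.6%. Of the 5 tested genes of the white-matter state (8 listed, 3 of them in the rule), 4 were higher, with a list median of 2.06 on the log2 scale against -0.01 over all genes. Besides S100b and Hopx these were Mgst3, a microsomal glutathione transferase, at 34.4, 29.2 and 43.8 CPM against 8.56, 11.9 and 5.46, and Ermn. The Mgst3 call was lost when each cell was thinned to 1500 UMIs (edgeR adjusted p = 0.0708), with a log2 difference of 1.46. Ermn stood at 1741, 1698 and 1711 CPM against 1267, 1251 and 1361, a log2 difference of 0.44. Anxa5, the fifth, had a log2 difference of 0.43 and did not pass the test (edgeR adjusted p = 0.32).

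The genes of the grey-matter states did not move as a group. Of 6 tested, Ptgds was lower while Apod and Trf were higher, and the list median was -0.13. Apod (chr16:31296192-31314808), which encodes a lipid carrier, was read at 4773, 4351 and 5314 CPM against 2229, 2472 and 2934, without overlap and higher in all 12 libraries (log2 difference 0.96). Trf, the gene of the iron carrier transferrin, differed by 0.62. Car2, carbonic anhydrase 2, had a log2 difference of -0.05 (edgeR adjusted p = 0.68).

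Of 9 genes of newly formed oligodendrocytes, 1 passed as higher and 1 as lower. An unadjusted p under 0.05 was reached by 6 of them, 2 upward and 4 downward. The higher one was Enpp6 (chr8:46986887-47096762), a choline phosphodiesterase, at 387, 493 and 396 CPM against 113, 137 and 165, a log2 difference of 1.66 and higher in all 12 libraries. The lower one was Gpr17, a receptor of cells about to mature, at 10.0, 3.12 and 19.0 CPM against 20.5, 8.53 and 127. Its types overlapped across samples, and the call was lost without the large sample (edgeR adjusted p = 0.355).

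Myelin protein genes differed in both directions. Of 12 myelin protein genes tested, 6 were higher and 2 lower, with a median of 0.18, while DESeq2 called 3 higher and 2 lower. Pmp22, a tetraspan myelin protein, differed most at 601, 573 and 679 CPM against 172, 305 and 254 (log2 difference 1.42). The difference of Mbp, a main protein of central myelin, was 0.25, and its call was lost without the early sample (edgeR adjusted p = 0.111). The tetraspanins Tspan2 and Cd9 had differences of -0.98 and -0.86, and Cnp, a myelin enzyme, had a difference of -0.01 (edgeR adjusted p = 0.94). The list of septins and anillin scaffold genes, which also holds Ermn, Tppp and Cdc42ep1, showed 3 higher and 1 lower of 9. It was led by Sept8 at 845, 1156 and 1112 CPM against 498, 738 and 631 (0.77). Ermn was among the higher ones, while Sept4 had a difference of -0.43. The higher ones include Sept2, of which 1 of the 2 gene models in the table was called, with a difference of 0.42. That call was lost with DESeq2 (adjusted p = 0.349), without the early or the large sample (edgeR adjusted p = 0.131 and 0.189), without normalization factors (0.0540) and without the block (0.327), and after thinning to 1500 UMIs the difference was 0.14 (0.821).

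Lipid synthesis genes that passed the test were all higher. In the galactolipid and fatty acid list 7 of 16 were higher and 0 lower, and the list median was 0.17. Elovl5 and Elovl7, which lengthen fatty acids, differed by 0.96 and 0.81, and Ugt8a, which makes galactocerebroside, stood at 1321, 1419 and 1686 CPM against 952, 910 and 1136 (0.59). In cholesterol synthesis 5 of 19 were higher and 0 lower, with a median of 0.41, and DESeq2 called 3 higher. Hmgcs1, which acts early in the pathway, differed by 0.62 and Idi1, a later step, by 0.67.

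Contacts between oligodendrocytes, axons and astrocytes gave 5 higher and 1 lower of 11, while DESeq2 called 3 higher and 1 lower. The gap junction gene Gjb1 was higher by 0.77 and the potassium channel gene Kcnj10 by 0.53, while Nfasc, a paranodal adhesion molecule, had a difference of -0.47. The Nfasc call was lost without the early or the large sample (edgeR adjusted p = 0.139 and 0.169) and after thinning (0.148). Among 12 lineage transcription factors Hopx was higher and Olig2 and Zfp536 were lower, with differences of -0.53 and -0.49. Zfp536 lost its call without the early or the large sample (edgeR adjusted p = 0.0594 and 0.114) and with DESeq2 (0.0946), and Olig2 lost it after thinning (0.163). Sox10 and Myrf, which drive myelin genes, had differences of 0.01 (edgeR adjusted p = 0.98) and 0.04 (0.87).

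Among lists of stress, immune and metabolic genes, the share called started at 0 of 13 mitochondrial genes. It reached 36.4% of 11 genes of proteases and protease inhibitors, against 5.30% over all genes. Serpina3n, a protease inhibitor raised in disease-associated oligodendrocytes, was higher by 0.74, and Cd63 and B2m of the same list of 9 were lower, with differences of -1.03 and -0.71. Of 13 MHC class I and interferon genes 0 were higher, also by DESeq2 and at an unadjusted p under 0.05, and 1 was lower, namely B2m, with 4 lower at an unadjusted p under 0.05. The B2m call was lost without the early or the large sample (edgeR adjusted p = 0.212 and 0.143), with at least 8 myelin UMIs (0.0969) and without the block (0.959), and B2m was higher in the Klk6-type cells of 4 of the 12 libraries. Immediate-early genes had a median of -0.54 over 18 tested, and Nr4a1 alone was called, with a difference of -1.17, while 7 were lower at an unadjusted p under 0.05. The Nr4a1 call was lost without the early or the large sample (edgeR adjusted p = 0.102 and 0.103). Heat shock genes gave 0 higher and 2 lower of 12 (1 lower by DESeq2), amino acid and unfolded protein stress genes 1 higher and 0 lower of 10, and iron genes 2 higher and 0 lower of 6. Of the 13 mitochondrial genes 0 were called by edgeR or DESeq2 and 0 had an unadjusted p under 0.05. Genes that answer glucocorticoid or insulin gave 3 higher and 1 lower of 12, with Pdk4 higher by 1.21 and Sgk1 at -0.61, the latter lost without the medium sample (edgeR adjusted p = 0.0660) and with DESeq2 (0.0610). After thinning to 1500 UMIs Pdk4 lost its call (edgeR adjusted p = 0.0740), and DESeq2 called 2 higher and 0 lower in this list. Genes of proteases and protease inhibitors gave 2 higher and 2 lower of 11, and every called member was an inhibitor. Serpina3n and Serpinb1a were higher, and the metalloprotease inhibitors Timp3 and Timp2 had differences of -1.60 and -1.06. The calls of Serpinb1a and Timp3 were lost after thinning (edgeR adjusted p = 0.419 and 0.0519).

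The genes the study listed for its own oligodendrocyte clusters, which were chosen on these cells and so are not independent evidence, gave 5 higher and 3 lower of 20 for the cluster with myelination genes and 3 higher and 1 lower of 15 for the cluster with respiration genes. DESeq2 called 3 higher and 2 lower of the first and 2 higher and 0 lower of the second.

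**Figure D3:**
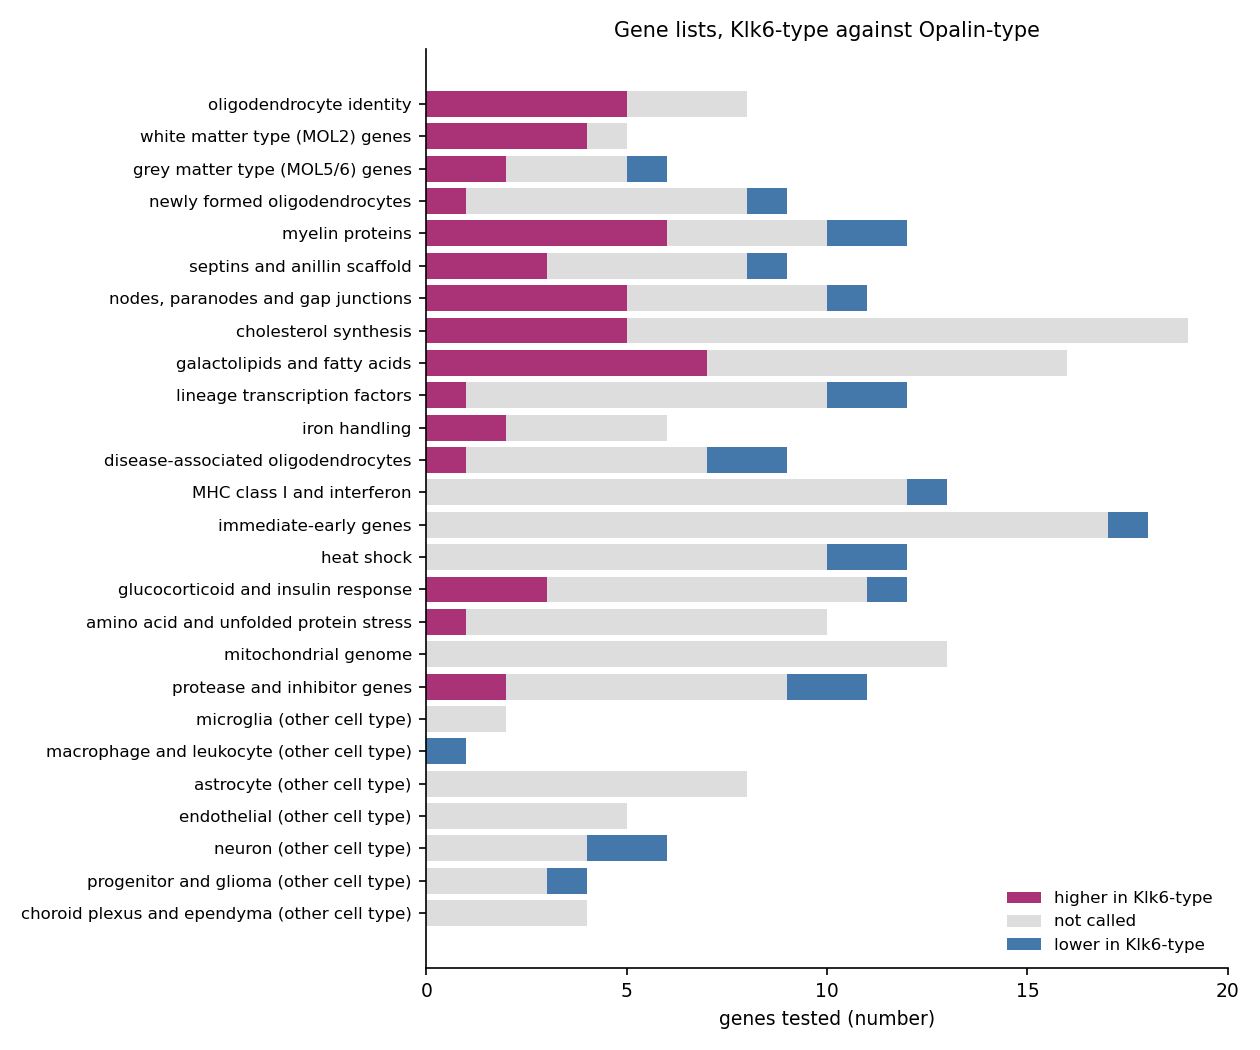
Number of genes tested in each list (x axis), divided into genes higher in Klk6-type cells, not called and lower in Klk6-type cells (edgeR quasi-likelihood, adjusted p under 0.05). The white-matter list has 4 of 5 genes higher, and the galactolipid and fatty acid list has 7 of 16 higher and none lower.

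Transcripts of other cell types were present in both types and not equal between them. Neuron markers summed to 243, 98.9 and 188 CPM in Klk6-type cells and to 445, 127 and 622 in Opalin-type cells. Of 6 neuron genes tested, Snap25 and Syt1 were lower, with differences of -2.43 and -2.79 and values that overlapped across samples. DESeq2 called 1 of the 6 and did not call Syt1 (adjusted p = 0.470). At an unadjusted p under 0.05, 5 of the 6 were lower, against 7.76% of all genes, and the list median was -2.23. Without the large sample the Snap25 call was lost (edgeR adjusted p = 0.0627). Endothelial markers summed to 226, 196 and 185 CPM against 290, 165 and 241, compared with 17742, 17212 and 13422 in endothelial cells themselves. Those endothelial cells were picked by UMIs of Cldn5, Ly6c1, Flt1 and Itm2a, and the list holds Cldn5, Flt1 and Itm2a, so their sums are a description. Of the endothelial markers 0 of 5 were called by edgeR or DESeq2, with 4 at an unadjusted p under 0.05. Microglial markers summed to 71.3, 35.4 and 46.7 CPM against 92.8, 39.2 and 50.7, with 8 of 12 at 0 in the Klk6-type cells of the large sample and 0 of 2 tested called by either tool or at an unadjusted p under 0.05. The microglial list includes P2ry12, Tmem119 and Gpr34, which the rule held to at most 2 UMIs a cell in both types. These low sums and zeros were therefore partly set in advance. Macrophage markers summed to 16.3, 20.8 and 5.84 CPM against 34.7, 85.3 and 19.5, and the only one tested, Cd74, had a difference of -2.01 and was called by edgeR and not by DESeq2, nor by edgeR without the medium or the large sample. Astrocyte markers, with 0 of 8 called by edgeR or DESeq2 and 2 at an unadjusted p under 0.05, summed to 403, 576 and 282 CPM against 539, 390 and 404. Progenitor markers, 1 of 4 lower, summed to 304, 254 and 308 CPM against 343, 425 and 471. The lower one was Olig2, already counted above among the lineage transcription factors, so neither its call nor its UMIs mark another cell type. Choroid plexus markers, with 0 of 4 called by edgeR or DESeq2 and 1 at an unadjusted p under 0.05, summed to 2177, 215 and 55.5 CPM against 3079, 130 and 81.1. The part of these transcripts in the lower calls was not tested.

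The levels of S100b and Ptgds changed along the margin between the marker sums. S100b went from 62.0 ± 16.4 CPM (SD, n = 3 tumor samples) in the 927 cells with at least 4 more UMIs of the Opalin side to 286 ± 111 in cells with equal sums. It stood at 405 ± 176 at a margin of 1 and 1495 ± 90.0 in the 530 cells with at least 4 more UMIs of the Klk6 side. Ptgds ran the other way, from 11932 ± 2073 CPM at the Opalin end to 6110 ± 3247 at equal sums and 1654 ± 702 at the Klk6 end. The steps between were uneven, since Ptgds in the large sample stood at 3025 CPM at equal sums, 5274 at a margin of 1, 6310 at 2 to 3 and 1016 at the Klk6 end. Cells at the Klk6 end were also deeper, with sample medians of 3257.5 to 4354 UMIs against 2568 to 2851 at the Opalin end, and the part of depth in the gradient was not tested.

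**Figure D4:**
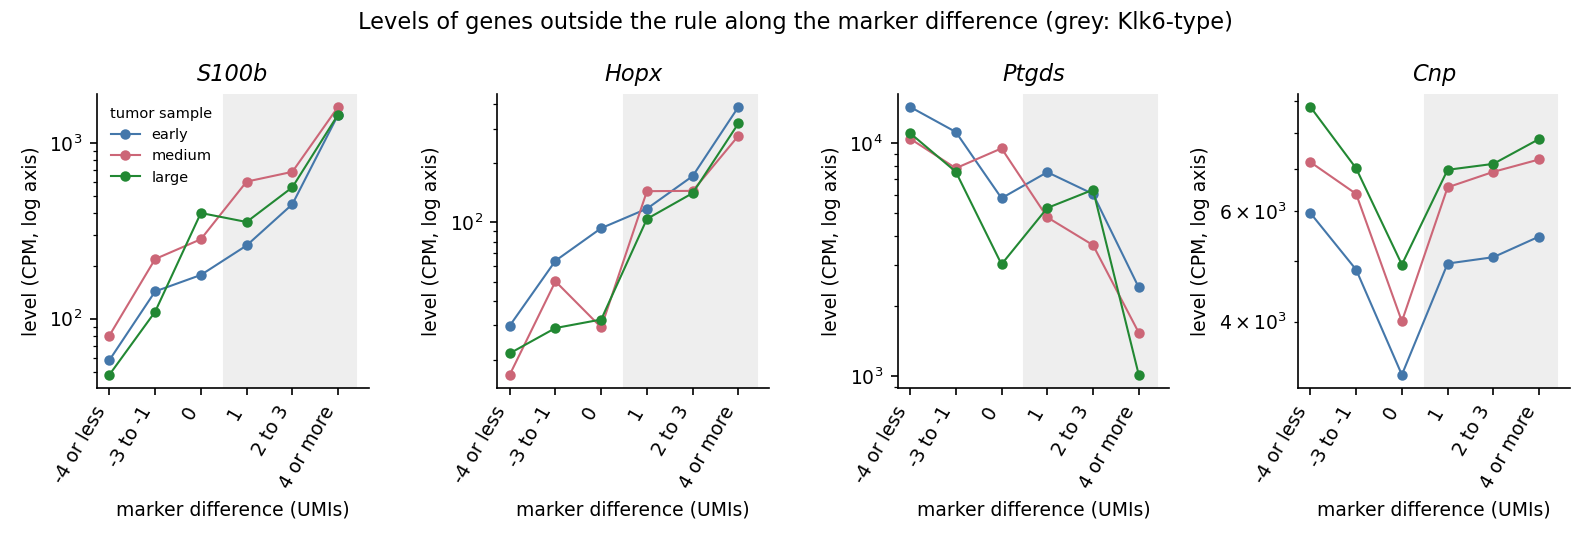
Levels of S100b, Hopx, Ptgds and Cnp (y axes, CPM on a log axis) in oligodendrocytes grouped by the Klk6, Hapln2 and Anln sum minus the Opalin, Il33 and Grb14 sum (x axes, UMIs), with a line for each tumor sample. The grey area holds Klk6-type cells; the mean of S100b goes from 62.0 to 1495 CPM and that of Ptgds from 11932 to 1654 CPM.

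Within the Klk6-type cells, those with a UMI of Klk6 itself stood further along the same direction. S100b was at 2120, 2347 and 2026 CPM in the 134, 63 and 56 cells with Klk6 and at 486, 782 and 570 in the 383, 171 and 153 cells without it. Ptgds was at 1183, 926 and 1046 CPM with Klk6 and at 5348, 3057 and 3864 without. Both genes separated the subsets in all 3 samples. Cells with Klk6 had median depths of 3811, 4806 and 3724.5 UMIs against 2365, 3377 and 2710, and this split uses a gene of the rule, so it is a description.

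Changes across tumor stages were described without a test, as the log2 ratio of CPM between 2 stages with an exact 95% interval of counting error, for genes with at least 20 UMIs over both. From early to large, 620 of 9540 genes were at least 2-fold higher (6.50%) and 561 at least 2-fold lower (5.88%), and the median gene moved by 0.13. Relative to that median gene the numbers were 437 higher and 715 lower. From early to medium 646 of 9947 were higher (6.49%) and 553 lower (5.56%), or 514 and 646 relative to the median gene. From medium to large 433 of 8577 were higher (5.05%) and 482 lower (5.62%), or 384 and 521 relative to it. Without the early library T04B, 370 genes were lower from early to large.

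None of the 5 white-matter genes and none of the 12 myelin protein genes outside the rule was 2-fold higher or lower between any pair of stages. The markers that chose the cells are a description here too, with Hapln2 at 688, 836 and 759 CPM and Anln at 1243, 1073 and 1185 in stage order. On the other side of the rule, Il33 stood at 78.8, 180 and 156 CPM, Grb14 at 171, 205 and 190 and Opalin at 133, 150 and 254, so Il33 and Opalin were lowest in the early sample.

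MHC class I and interferon genes were high in the medium sample. So that no gene was counted through the sample where it was high, members were chosen by at least 20 UMIs in the sample outside the pair compared, a choice made after seeing the data. Of the 17 listed, 5 were so chosen from early to medium, and 4 of them (B2m, H2-D1, H2-K1 and Tapbp, the gene of a loading factor of class I) were at least 2-fold higher, against 3.31% of all genes chosen likewise, while 0 were 2-fold lower, against 1.47%. From medium to large 5 of 7 were at least 2-fold lower (B2m, H2-D1 and H2-K1 among them), against 5.23%, and 0 were 2-fold higher, against 5.69%. H2-D1 (chr17:35262730-35267499), a class I heavy chain, was read at 102, 954 and 78.8 CPM in the early, medium and large samples. Its 4 medium libraries ranged from 585 to 1701 CPM, above all 8 others, and the log2 ratio of medium over early was 3.22 (2.98 to 3.48), against 1.94 in Opalin-type and 0.69 in endothelial cells. B2m, the class I light chain, and H2-K1, both chosen after their values were seen, were also highest in the medium sample at 71.9, 446 and 32.1 CPM and at 47.5, 418 and 62.8 CPM.

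UMIs of the list were concentrated in few cells, with the top 10% of Klk6-type cells holding 65.5%, 75.1% and 56.9% of them in the early, medium and large samples. Iigp1, Igtp and Gbp7, genes of interferon-induced GTPases, were named because they were high in the medium sample, so their cell counts by stage are a description. These genes were read in 18 of 234 Klk6-type cells of the medium sample (7.69%, exact interval 4.62 to 11.9), spread over its 4 libraries. They were read in 4 of 517 early cells (0.774%) and in 0 of 209 large cells, for which the exact interval reaches up to 1.75%. The list holds none of these 3 genes, but they too are induced by interferon and picked the 18 cells, so the list sum of 12941 CPM in them is a description, against 1078 in the other medium cells. H2-D1 was at 504 CPM in those other cells. Iigp1 was at least 42.7-fold and Gbp7 at least 34.4-fold higher in the medium than in the early sample, where neither was read, using a floor of 3 UMIs over the sample. Both reached the minimum of 20 UMIs only through the medium sample, so these folds are a description too. The 77 UMIs of Iigp1 came from 6 cells, with 33.8% in 1 of them, and the 62 of Gbp7 from 8 cells, with 27.4% in 1. Opalin-type cells with any of the 3 genes made up 4.00%, 5.19% and 0.454% of their samples. Dapl1, also ranked among the higher genes, had all of its 24 UMIs in 1 cell.

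Hcn2 (chr10:79716634-79736108), which encodes a hyperpolarization-activated cation channel, stood at 102, 253 and 358 CPM in the early, medium and large samples. The early libraries ranged from 84.8 to 110 CPM and the large ones from 334 to 409, without overlap, and the medium ones from 201 to 395. The log2 ratio of large over early was 1.81 (1.52 to 2.11), against 1.23 in Opalin-type cells (0.94 to 1.53). Endothelial cells held only 4 UMIs in each of these samples, too few to compare (-1.89 to 2.95). UMIs of Hcn2 came from 108 cells of the large and 105 of the early sample.

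Spock1 (chr13:57421195-57908332), a secreted proteoglycan gene, was read by 115, 225 and 2 UMIs in stage order, or 71.9, 234 and 2.92 CPM. The large libraries reached at most 6.30 CPM, below all early libraries at 54.2 to 83.0 and all medium ones at 195 to 304. The log2 ratio of large over early was -4.31 (-7.69 to -2.74), and -3.27 in Opalin-type cells.

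**Figure D5:**
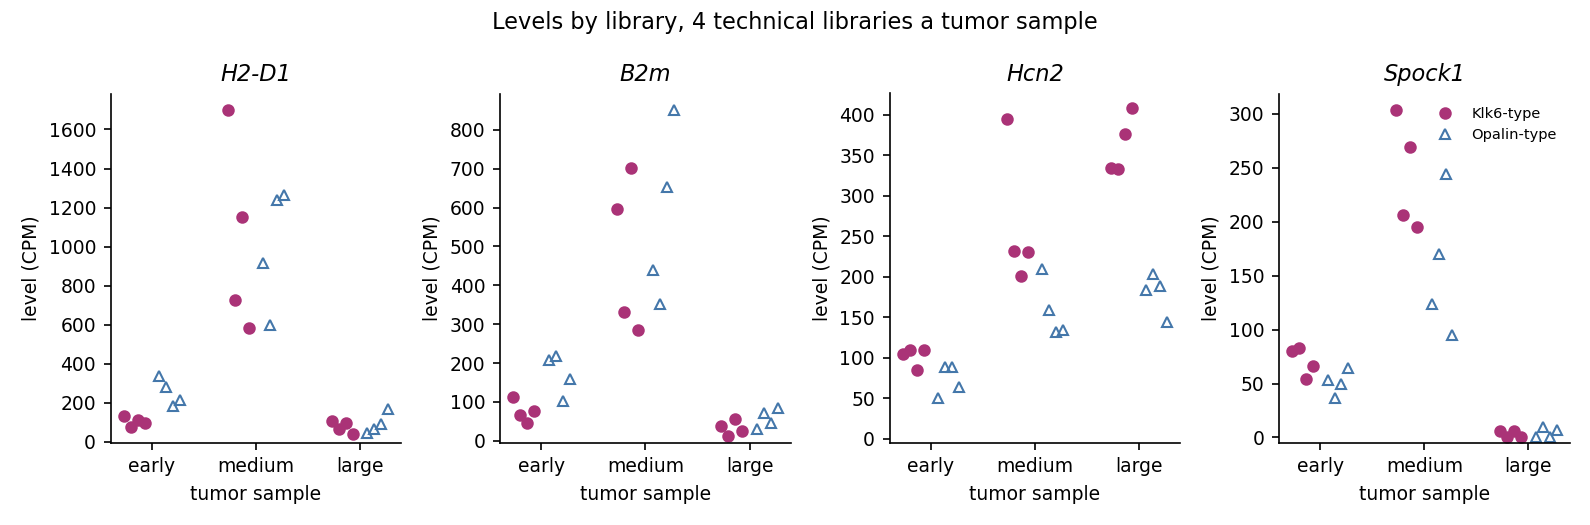
Levels of H2-D1, B2m, Hcn2 and Spock1 (y axes, CPM) in each of the 4 technical libraries of the early, medium and large samples (x axes), for Klk6-type cells (filled circles) and Opalin-type cells (open triangles). H2-D1 is highest in the medium libraries at 585 to 1701 CPM in Klk6-type cells, and Spock1 stays at or below 6.30 CPM in the large ones.

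Hnrnpll (chr17:80029487-80062334), an RNA-binding regulator of splicing, ranked first among the higher genes at 124 CPM in the early and 556 in the large sample. Its libraries overlapped, however, with 21.2 to 221 CPM in the early and 89.9 to 866 in the large sample, although not within a sequencing run. Early against large libraries stood at 200 against 737 and 866 CPM in run 1 and at 21.2 against 89.9 in run 2. In run 3 they stood at 95.2 and 221 against 409 CPM. The level of Hnrnpll moved as much in endothelial cells (log2 ratio 2.29) as in Klk6-type cells (2.16). Smyd5, Pskh1, Lrrc17, Tbl2, Trmt10b and Kdm6b, the others named from early to large, rested on 18 to 38 UMIs in the large sample. Zfp346, Asb7, Irf2bpl and Zfhx4 led the increases from medium to large on 18 to 46 UMIs. Those small counts leave wide intervals, such as 1.85 to 5.06 for the log2 ratio of Smyd5, which cover counting error only. In the large sample a single cell held 42.9%, 41.4% and 44.8% of the UMIs of Smyd5, Tbl2 and Trmt10b. Their log2 ratios of large over early in Opalin-type cells were 0.40, 0.02 and 0.34. For Pskh1, Lrrc17 and Kdm6b a single cell held 18.4%, 22.2% and 33.3%, and the Opalin-type ratios were 1.27, 2.14 and 0.96.

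Several of the largest decreases from early to large were transcripts of blood and choroid plexus. Hbb-bs was read by 3874 UMIs in the early and 0 in the large sample, at least 553-fold lower, and Hba-a1, Hba-a2 and Hbb-bt were at least 434-fold, 364-fold and 337-fold lower. One cell held 32.6% of the Hbb-bs UMIs. Ttr, a choroid plexus transcript, went from 3395 to 20 UMIs with 74.2% of the early ones in 1 cell. Mgp went from 142 to 2 UMIs, with 69.7% of its early UMIs in 1 cell. Its log2 ratio went the other way in Opalin-type cells (2.60) and in endothelial cells (2.23). Atp1b1, a sodium pump subunit, went from 56 UMIs in 11 cells to 0, at least 8.0-fold lower, while its log2 ratio in Opalin-type cells was -0.05.

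Of 13 mitochondrial genes, 9 were at least 2-fold lower from early to large, against 5.88% of all genes. Their median log2 ratio was -1.11, against -1.31 in Opalin-type and -1.15 in endothelial cells. From early to medium and from medium to large 0 of 13 were at least 2-fold lower, against 5.56% and 5.62% of all genes, with medians of -0.46 and -0.67. Of 16 immediate-early genes with at least 20 UMIs in the medium sample, 4 were at least 2-fold lower from early to large (Btg2, Junb, Klf2 and Klf4), against 3.33% of all genes chosen likewise, and 0 were 2-fold higher, against 4.66%. The list median was -0.80. Over the 17 members with at least 20 UMIs over both stages it was -0.81, against -0.31 in Opalin-type and 0.34 in endothelial cells. From medium to large, 8 of 17 members with at least 20 UMIs in the early sample were at least 2-fold lower, against 5.23% of all genes. Of these members 0 were 2-fold higher, against 5.69%. Over the 16 members with at least 20 UMIs over both stages, the median from medium to large was -0.80, against 0.57 in Opalin-type and 0.03 in endothelial cells. From early to medium it was -0.02, against -0.85 in Opalin-type and 0.12 in endothelial cells, so the types did not move together. Sgk1, a kinase induced by glucocorticoids, was read at 184, 166 and 68.6 CPM in the early, medium and large samples (log2 ratio of large over early -1.41), against -1.36 in Opalin-type and -0.64 in endothelial cells.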

How the data were processed

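The authors deposited raw UMI counts per gene and cell (inDrop, transcripts quantified with RapMap in bcbio-nextgen against GRCm38, mm10 in the submitters' notes) and a library annotation that gave stage and sort. Their methods state removal of empty droplets and doublets, and whether this preceded the deposited table is not given in the sources used here. Cells were filtered and typed by UMI counts, and the 14 rule genes stayed in library sizes but were not tested. The members and gene lists were chosen with earlier results of these data known.

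UMIs summed by type and tumor sample were compared with edgeR 4.0.16 (TMM, filterByExpr, robust quasi-likelihood, Benjamini-Hochberg) in R 4.3.3, with the tumor sample as a block because both types came from the same animals. Deviations of paired types correlated at 0.315, 0.174 and 0.223. The block takes up differences in level between tumor samples. With 3 samples, p-values rest on how far the difference between the types varied among these samples. Normalization, filter, block, tool (DESeq2 1.42.0), thinning to 1500 UMIs, rule margins, doublet removal (Scrublet in scanpy 1.11.5) and left-out samples or libraries were varied. Stage ratios used a prior of 0.5 UMIs. Genes named were the 12 largest called differences each way with the same sign in 3 samples and at least 50 CPM in the higher type, up to 4 called members a list, and for stages the first 8 or 4 by interval bound with the same direction in every run. Steps were tested on simulated data. Some items that these rules name are not reported here.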

Additional observations from a re-analysis of the deposited data

Results flagged for a closer look

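Hcn2 in the Klk6-type cells of the medium library T28A stood at 395 CPM, apart from the other 3 medium libraries at 201 to 232 CPM. Its gap to the nearest library was 0.840 of the range, above the critical value of Dixon's test. It was the only one flagged of 36 groups of 4 libraries, and at the 95% level of that value chance gives 1.8 flags in 36 groups.

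In the CD45+ sort, which the comparisons do not use, 15 of 11218 cells met the Klk6-type rule (0.134%, exact interval 0.0749 to 0.220). They numbered 10, 4 and 1 in the early, medium and large samples, had a median of 2134 UMIs, and 0 of the 15 held a UMI of Ptprc, the gene of CD45.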

How the results depend on the processing

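Between the types, genes higher and lower numbered 191 and 93 with DESeq2 and 158 and 80 with no replicate block, 222 genes were higher after thinning to 1500 UMIs and 433 were lower without a filter on low counts. Leaving out 1 tumor sample gave 208 to 409 higher, with 214 without the large one, and 122 to 324 lower. Of the 73 called genes named, 36 kept the call under every alternative run and none reversed. The share of Klk6-type cells was 34.3% early and 33.9% medium over all oligodendrocytes, 42.5% early after thinning, 43.4% early in run 1, 33.3% medium in run 3 and 28.1% large in run 3. Leaving out 1 library gave 37.8% to 39.9% early, 36.2% to 39.3% medium and 31.4% to 33.3% large.

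With at least 50 UMIs a gene, 212 were higher and 203 lower from early to large, 260 and 160 from early to medium, and 95 and 130 from medium to large. Thinning gave 352 lower from early to large, 403 higher and 322 lower from early to medium, and 247 higher and 205 lower from medium to large. Within run 1, 244 were lower from early to large, 404 higher and 279 lower from early to medium, and 228 lower from medium to large. Within run 3, 201 were higher and 227 lower from medium to large. Leaving out 1 library gave 560 to 757 higher and 370 to 723 lower from early to large, the lowest without T04B, 606 to 757 and 386 to 648 from early to medium, and 397 to 471 and 386 to 570 from medium to large. The cause of these shifts was not tested, apart from the fewer genes or cells that a stricter minimum, thinning or a single run leaves. Removing the highest 5% of Scrublet scores, chosen after seeing the data, kept every count within 1.5 times, but Cd74 lost its call. With 1 tumor sample a stage, depth is not the only limit of the stage ratios.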
